A study of Mus musculus with 6 samples.

Results

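The 36 genes described here are the p53 tumour suppressor gene (Trp53), its regulators and genes that p53 switches on. They were taken by symbol from a fixed list, each symbol matched 1 gene identifier, and together they are 36 of the 55401 genes in each count table. RNA was counted in RAW264.7, a mouse macrophage line from an Abelson virus tumour, in 3 Nop16 siRNA libraries (genotype tag Nop16 KD) and 3 control siRNA libraries (genotype tag WT). All samples carry the treatment tag no and share a protocol text that names only the Nop16 siRNA, at 20 nM for 3 days. What the control siRNA was, and whether it was given by the same protocol, is not stated there, so responses to Nop16 loss and to transfection cannot be told apart. The labels do not tie replicates to separate cultures, and p-values thus measure a spread between libraries that may be technical only.

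p53 is a transcription factor that unstressed cells destroy as fast as they make it, because Mdm2, a ubiquitin ligase that p53 itself induces, marks it for degradation. Mdm4, a relative of Mdm2, binds p53 and blocks its activity. When ribosome assembly in the nucleolus fails, free ribosomal proteins, Rpl5 and Rpl11 among them, bind Mdm2 and p53 builds up, so a rise of p53 target RNA is one known sign of nucleolar stress. Since p53 is controlled mainly through the protein, the level of Trp53 RNA does not report its activity. Nop16 is a factor of the nucleolus that helps to build the large ribosomal subunit, and the comparison asks how RNA of the p53 pathway differs once Nop16 is lowered.

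Nop16 RNA itself had 61, 72 and 84 counts in the Nop16 siRNA libraries, against 388, 437 and 402 counts in the control siRNA libraries. It fell to 0.224 of its control level (log2 fold change -2.16, SE 0.12, edgeR adjusted p = 2.94e-23). Total counts were 15601477 to 18635089 in Nop16 siRNA libraries and 19778237 to 23061922 in control siRNA libraries. All 6 macrophage markers were detected. Of these, 4 rose (66.7%, against 23% of all genes tested), and Adgre1 and Spi1 did not pass the test. The 6 summed to 6898 to 7292 CPM (counts scaled to library size) in Nop16 siRNA libraries and 4294 to 4560 CPM in control siRNA libraries. Most of that difference came from Lyz2, at a mean of 2934 CPM in Nop16 siRNA and 1144 CPM in control siRNA libraries. The count of Itgam is uncertain, since 68.7% of its exonic length is shared with another gene model on the same strand. Of 10 markers of T cells, B cells, epithelium, fibroblasts and endothelium, 4 had 0 counts in all libraries, Cd3e and Krt8 among them, and the 10 summed to 2.12 to 2.71 CPM in Nop16 siRNA libraries and 1.63 to 1.73 CPM in control siRNA libraries. In bulk RNA, fewer expressing cells and less RNA per cell cannot be told apart.

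p53 binds a 20-base element made of a pair of 10-base half-sites, and some of these lie close to the start of its target genes. RefSeq windows from 250 bases before to 50 bases after an annotated start (GRCm38.p6) were found for 30 of the 36 genes. The sequences below are a selection of the matches, beside genes whose RNA is described afterwards. The half-sites of Ppm1d, Ei24 and Polk and the pair of Bax were also found and are not printed. Capitals mark the bases of the half-sites, and lower case marks the spacer between them.
Ccng1: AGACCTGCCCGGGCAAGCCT
Cd80: GAACAGGCCTGGACAAGTCA
Sesn1: GCGCTTGGCCttcAAGCTTGTTT
Pml: AGCCATGCCCgcatgccGGGCTTGTTT
Gadd45a: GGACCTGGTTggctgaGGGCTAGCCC
Cdkn1a: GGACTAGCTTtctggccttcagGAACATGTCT
Mdm2: GAACTTGCCT
Aen: GGGCTTGTCC
Trp53: GGACTTGCCC
The first 6 are paired sites, with at most 2 mismatches to the p53 consensus over the pair and a spacer of at most 13 bases, and the last 3 are exact half-sites. The Ccng1 pair (chr11:40755462-40755481, minus strand) lies at bases -195 to -176 from the start, has a spacer of 0 bases and differs from the consensus at 1 base. The Cd80 pair (chr16:38458822-38458841, plus strand) lies at bases -111 to -92, inside the span of the counted Cd80 gene but in none of its exons, with 2 mismatches. The Sesn1 pair is at chr10:41887253-41887275 on the plus strand. It too lies inside the counted gene (chr10:41809935-41908424), so the start it is near is an internal one. The Pml pair is at chr9:58249921-58249947 on the minus strand. The Gadd45a pair (chr6:67037438-67037463, minus strand) overlaps an annotated Gadd45a exon of the counted gene models, although it lies at bases -56 to -31 from the RefSeq start. Cdkn1a, the gene of the cell cycle inhibitor p21 and not one of the 36, is shown because p53 acts on it in most cells. Its pair (chr17:29090906-29090937, plus strand) has 0 mismatches and a spacer of 12 bases, at bases -73 to -42. The search did not reach beyond 250 bases before the start, and this pair was not shown to be one that p53 uses. The Mdm2 half-site is at chr10:117710935-117710944 on the minus strand, and the Aen half-site at chr7:78895937-78895946 on the plus strand lies in an Aen exon. The Trp53 half-site (chr11:69580284-69580293) lies at bases -75 to -66 from the Trp53 start and at -43 to -34 from the start of Wrap53, which is read from the opposite strand. Apart from those of Gadd45a and Aen, the sites shown lie in no exon of the counted gene models.

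An exact half-site was in 12 of the 41 windows of the 36 genes (29.3%), against 8.36% of all 32851 windows in the RefSeq table, and a paired site was in 5 of 41 (12.2%), against 4.09% of all windows. These are counts of windows and not of separate sites. The Aen half-site falls in 2 of the 12 windows, and the windows of Trp53 and Wrap53 share 1 half-site. The consensus reads the same on both strands, so 1 search covers both, and in 4 of the 5 genes with a pair an exact half-site is part of the pair. The search looked only at these short windows. RNA of the 12 genes with a half-site or a pair went both ways, with 4 higher, 4 lower and 4 that did not pass the test. Of the 18 genes with a window and neither motif, 8 were higher, 3 lower, 5 did not pass and 2 were not tested. Beside these counts, 23% of all genes tested were higher and 22.4% lower. Of the 32 genes of the set that were tested, 40.6% were higher and 25% lower. A match is a run of letters and was not shown to be bound.

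**Figure D1:**
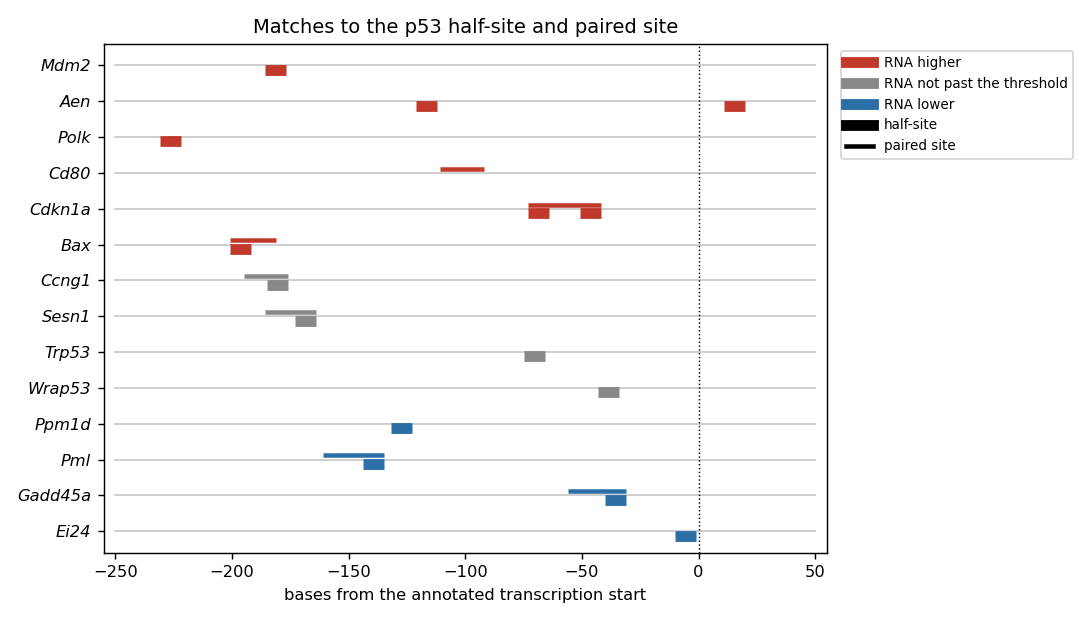
Positions of matches to the p53 half-site (thick bars, below each line) and paired site (thin bars, above it) in bases from the RefSeq transcription start, for the 12 genes of the set that hold one and for Cdkn1a and Bax; colour gives the call of the gene's RNA in Nop16 siRNA against control siRNA. Genes called higher, called lower and not called are mixed among those with a match, and the marks of Aen are 1 site seen from 2 annotated starts.

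Of the 36 genes, 32 were expressed enough to be tested, and 13 of these rose, 8 fell and 11 did not pass at an edgeR adjusted p below 0.05. Over all 14269 genes tested, 45.4% were called, 23% higher and 22.4% lower. The set thus had 40.6% higher and 25% lower, so the share that fell was close to that of all genes, and the share that rose was above it. The median log2 fold change of the 32 was 0.17, against -0.000196 over all genes tested. It was 0.0804 in DESeq2 and 0.0728 with no filter on low counts, where 35 genes of the set were tested. The median size of change regardless of sign was 0.33 on the log2 scale for the 32, against 0.21 for all genes tested. Most changes were small. The 13 rises ran from 1.13-fold to 2.72-fold with a median of 1.38-fold. Cd80, Fas and Plk3, 3 of the 32 tested, rose more than 2-fold. Over all 14269 genes tested, 425 (2.98%) passed that size in either direction, a smaller share than in the set. The 8 falls ran to 0.671 of control at most, so no gene of the set fell more than 1.5-fold. Summed over the 36 genes, the level was 1779 to 1815 CPM in Nop16 siRNA libraries and 1756 to 1806 CPM in control siRNA libraries, and these ranges overlapped. The groups did not overlap for 25 of the 32 genes, where 52.5% of all genes tested showed such a separation.

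**Figure D2:**
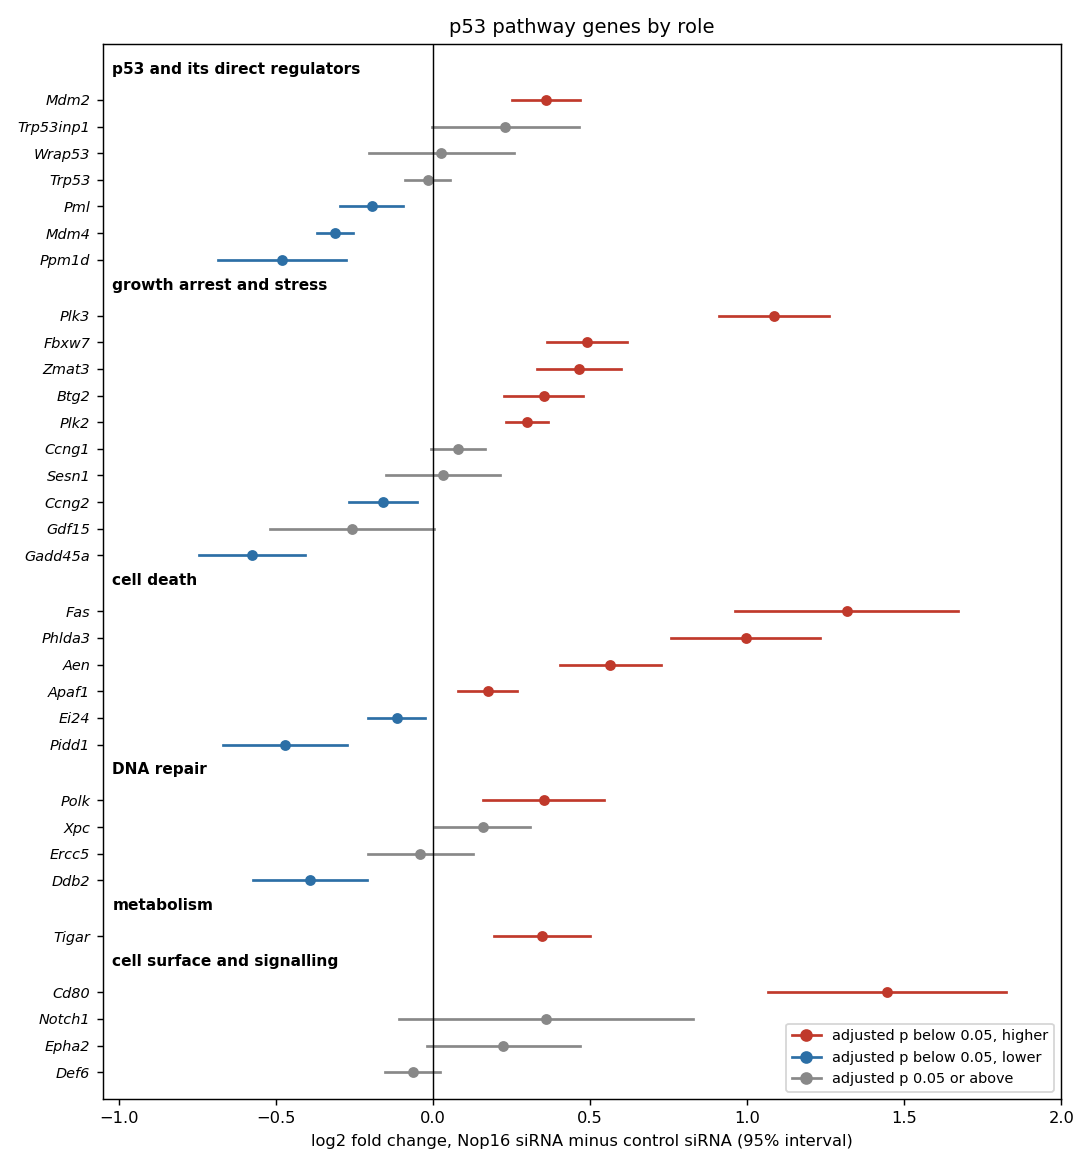
Log2 fold change of each of the 32 tested genes, Nop16 siRNA minus control siRNA, with its 95% interval from the edgeR fit, grouped by role; red is higher and blue lower at an adjusted p below 0.05, grey is not past it. Cd80, Fas and Plk3 lie above 1, no gene lies below -0.58, and each role with more than 1 tested gene holds values on both sides of 0.

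Trp53 (ENSMUSG00000059552, chr11:69580359-69591873, plus strand of GRCm38) did not pass the test. Its RNA stood at 171, 168 and 169 CPM in Nop16 siRNA libraries, against 179, 166 and 169 CPM in control siRNA libraries (log2 fold change -0.02, SE 0.0356, edgeR adjusted p = 0.741). The groups overlapped, and the 95% interval of the ratio was 0.941 to 1.04. Multi-mapped fragments were counted, and the pseudogene Trp53-ps matches Trp53 at 97.7% over 353 bases, but it had only 55 to 78 counts in Nop16 siRNA libraries and 94 to 124 in control siRNA libraries, where Trp53 had 2650 to 3110 and 3372 to 3930. The related genes Trp63 and Trp73 had at most 1 count in any library.

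The inhibitors of p53, Mdm2 (ENSMUSG00000020184, chr10:117688875-117710758, minus strand) and Mdm4 (ENSMUSG00000054387, chr1:132959484-133030561, minus strand), moved in opposite directions. Mdm2 was at 71.2, 79.6 and 80.9 CPM in Nop16 siRNA libraries, against 62.5, 63.2 and 54.9 CPM in control siRNA libraries. Every Nop16 siRNA library lay above every control siRNA library, and Mdm2 rose 1.28-fold (95% interval 1.19 to 1.38; edgeR adjusted p = 1.42e-07). Mdm4 was at 402, 409 and 406 CPM in Nop16 siRNA libraries, against 504, 507 and 500 CPM in control siRNA libraries, with almost no spread within a group. Mdm4 fell to 0.806 of control (0.774 to 0.838; edgeR adjusted p = 3.39e-14). Per kb of exon, Mdm4 stood at 1.81 ± 0.112 times the level of Mdm2 in Nop16 siRNA libraries and 2.88 ± 0.211 times in control siRNA libraries (SD, n = 3 each), so the more abundant of the pair remained Mdm4. Mdm2 per kb was 0.363 ± 0.0276 of Trp53 per kb in Nop16 siRNA libraries and 0.28 ± 0.0229 in control siRNA libraries (SD, n = 3 each).

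Other direct regulators were lower or did not pass. Ppm1d encodes a phosphatase that turns off p53 and its kinases and is itself induced by p53. It was at 10.1, 11.3 and 11.7 CPM in Nop16 siRNA libraries, against 16.2, 15.4 and 14.7 CPM in control siRNA libraries, and fell to 0.717 of control (edgeR adjusted p = 7.57e-05). Pml, the scaffold of nuclear bodies where p53 is modified, fell to 0.874 of control (59.3 ± 0.797 CPM in Nop16 siRNA and 67.8 ± 1.91 CPM in control siRNA libraries; SD, n = 3 each; edgeR adjusted p = 0.000946). Trp53inp1, a p53-induced cofactor of p53, was at 10, 11.2 and 11 CPM in Nop16 siRNA libraries, against 9.3, 8.69 and 9.6 CPM in control siRNA libraries. Its groups did not overlap, but it did not pass (log2 fold change 0.23, edgeR adjusted p = 0.105). Wrap53, a telomerase and Cajal body factor whose gene abuts Trp53, stood at 10.8 ± 0.86 CPM in Nop16 siRNA and 10.6 ± 1.27 CPM in control siRNA libraries (edgeR adjusted p = 0.875), with overlapping groups.

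**Figure D3:**
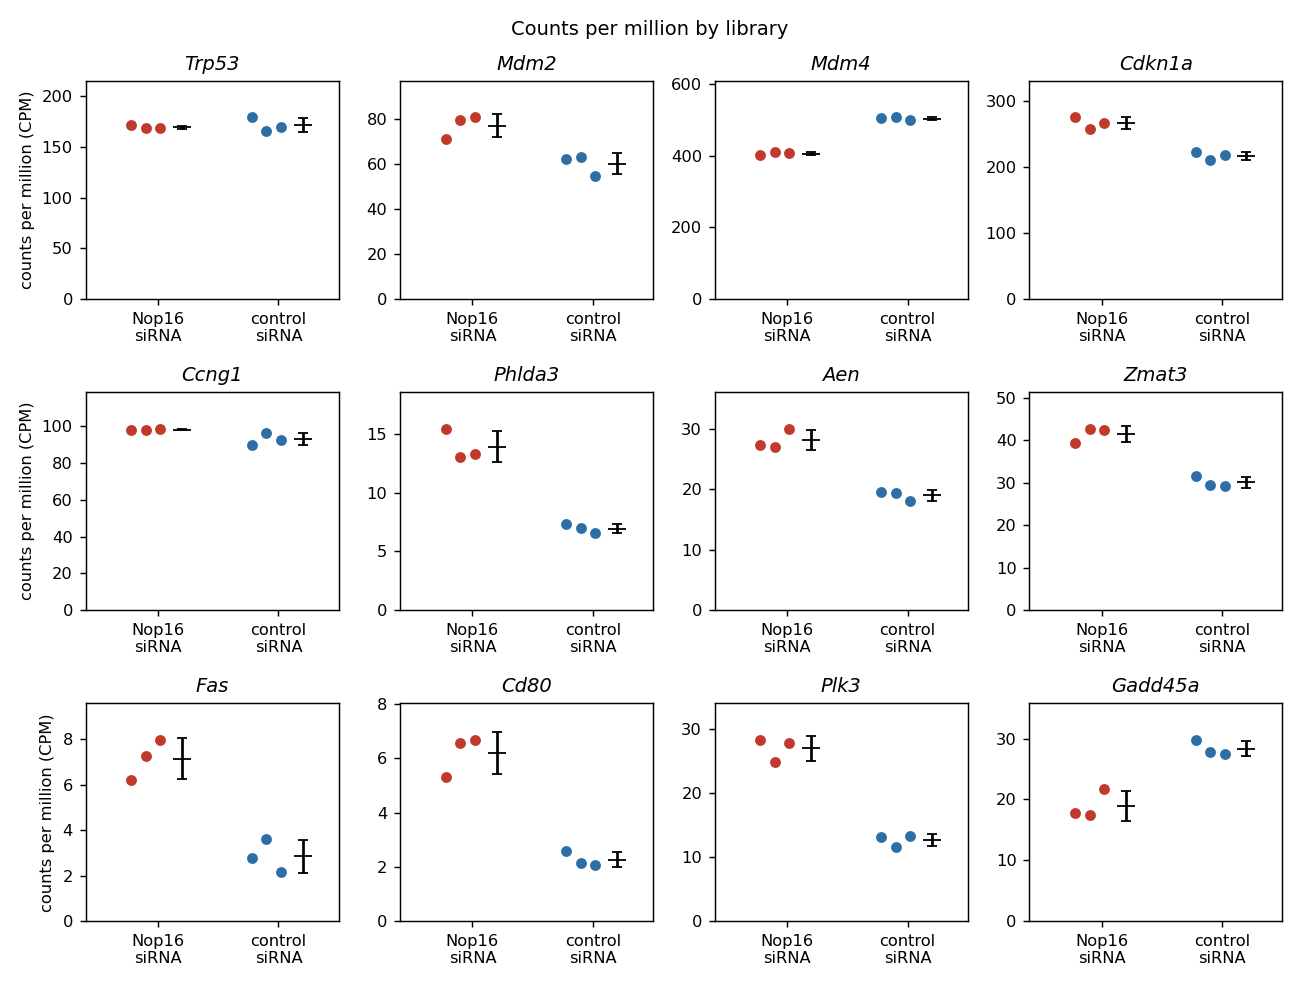
CPM in each library for 11 genes of the set and Cdkn1a, Nop16 siRNA (red, left of each panel) and control siRNA (blue, right); points are libraries and the black bar beside them is the mean with SD over 3 libraries, each axis starting at 0. Trp53 overlaps between groups, Mdm4 and Gadd45a are lower in every Nop16 siRNA library, and the other 9 genes are higher in every Nop16 siRNA library, although Ccng1 did not pass the test.

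Among the 10 genes of growth arrest and stress, 5 rose (50%), 2 fell (20%) and 3 did not pass. Over all genes tested, 23% rose and 22.4% fell. Plk3, a stress-responsive polo-like kinase (ENSMUSG00000028680, chr4:117128655-117133963, minus strand), rose most. It was at 28.4, 24.8 and 27.9 CPM in Nop16 siRNA libraries, against 13.2, 11.7 and 13.4 CPM in control siRNA libraries, which is 2.12-fold (95% interval 1.88 to 2.4; edgeR adjusted p = 2.3e-16). Plk2, a related kinase and per kb of exon the most abundant of the 36 in both groups, rose 1.23-fold (57.2 ± 1.31 CPM per kb in Nop16 siRNA and 46.4 ± 1.39 CPM per kb in control siRNA libraries; SD, n = 3 each). Fbxw7, which marks cyclin E and Myc for degradation, rose 1.4-fold, and Zmat3, an RNA-binding zinc finger protein, rose 1.38-fold. Zmat3 was at 39.3, 42.8 and 42.4 CPM in Nop16 siRNA libraries, against 31.5, 29.4 and 29.3 CPM in control siRNA libraries. Btg2, an antiproliferative partner of the deadenylase complex, rose 1.28-fold. The edgeR adjusted p of Plk2, Fbxw7, Zmat3 and Btg2 was 3.84e-06 or lower, and their groups did not overlap.

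Gadd45a, a stress sensor of the cell cycle that p53 induces after DNA damage (ENSMUSG00000036390, chr6:67035096-67037457, minus strand), went the other way. It was at 17.8, 17.4 and 21.8 CPM in Nop16 siRNA libraries, against 29.8, 27.8 and 27.4 CPM in control siRNA libraries. All Nop16 siRNA libraries were below all controls, and its ratio of 0.671 was the largest fall of the set (log2 fold change -0.58, SE 0.0838, edgeR adjusted p = 4.24e-08). An antisense gene overlaps Gadd45a, and the counting used strand. Ccng2, a cyclin G that restrains division, fell to 0.896 of control (edgeR adjusted p = 0.013). That call was lost in DESeq2 (adjusted p = 0.0523) and without control siRNA replicate 1 (edgeR, 0.057), Nop16 siRNA replicate 1 (0.0806) or Nop16 siRNA replicate 3 (0.0562).

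Ccng1, Sesn1 and Gdf15 did not pass, although Ccng1 and Sesn1 hold a paired site near an annotated start. That start is internal to the counted gene for Sesn1. Ccng1, the other cyclin G and a target of p53 in most mouse tissues, was at 98, 97.6 and 98.6 CPM in Nop16 siRNA libraries, against 89.8, 96.1 and 92.5 CPM in control siRNA libraries. The groups did not overlap, but the difference was 1.06-fold with a 95% interval of 0.996 to 1.12 (edgeR adjusted p = 0.126). Sesn1, a sestrin that restrains mTORC1, was at 15.5, 18.1 and 18.7 CPM in Nop16 siRNA libraries, against 17.4, 17.6 and 16.2 CPM in control siRNA libraries, and these groups overlapped (95% interval of the ratio 0.902 to 1.16; edgeR adjusted p = 0.811). Gdf15, a secreted stress cytokine, was at 7.13 ± 0.441 CPM in Nop16 siRNA and 8.51 ± 0.286 CPM in control siRNA libraries (SD, n = 3 each; edgeR adjusted p = 0.104). Every Nop16 siRNA library was below every control siRNA library for Gdf15.

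Of 9 genes of cell death, 6 were tested, and 4 rose (66.7%) and 2 fell (33.3%), against 23% and 22.4% of all genes tested. Fas lies at chr19:34290666-34327772 (ENSMUSG00000024778, plus strand) and Phlda3 at chr1:135766119-135769136 (ENSMUSG00000041801, plus strand). Fas, the death receptor of the extrinsic pathway, was at 6.2, 7.25 and 7.98 CPM in Nop16 siRNA libraries, against 2.78, 3.61 and 2.16 CPM in control siRNA libraries, and rose 2.49-fold (95% interval 1.95 to 3.19; edgeR adjusted p = 5.88e-09). Phlda3, which blocks activation of the survival kinase Akt, was at 15.4, 13 and 13.2 CPM in Nop16 siRNA libraries, against 7.29, 7.01 and 6.53 CPM in control siRNA libraries, and rose 1.99-fold (1.69 to 2.35; edgeR adjusted p = 1.61e-10). Both genes had groups well apart. Aen, a nuclease of apoptotic cells, was at 27.4, 27 and 30.1 CPM in Nop16 siRNA libraries, against 19.6, 19.4 and 18 CPM in control siRNA libraries, a rise of 1.48-fold (edgeR adjusted p = 2.68e-08). Apaf1, the core of the apoptosome, rose 1.13-fold, the smallest rise called in the set (edgeR adjusted p = 0.00177).

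Pidd1, which assembles the platform that activates caspase-2, was at 13.4, 12.1 and 11.6 CPM in Nop16 siRNA libraries, against 17.1, 18.5 and 15.5 CPM in control siRNA libraries. It fell to 0.722 of control (edgeR adjusted p = 5.92e-05). Ei24, a p53-induced protein of the endoplasmic reticulum, fell to 0.924 of control (edgeR adjusted p = 0.0326), a call that was lost in DESeq2 (adjusted p = 0.0904) and without control siRNA replicate 2 (edgeR, 0.123), control siRNA replicate 3 (0.0576) or Nop16 siRNA replicate 2 (0.184). The other death genes were near or at 0. The TRAIL receptor gene Tnfrsf10b had 2, 1 and 1 counts in Nop16 siRNA libraries and 4, 1 and 0 in control siRNA libraries. Perp, a membrane protein of p53-driven death in other cell types, had 3, 0 and 2 counts in Nop16 siRNA libraries and 3, 3 and 5 in control siRNA libraries, and Eda2r, the receptor of ectodysplasin A2, had 0 counts in all 6. A count of 0 allows up to 3 counts per library, or 0.129 to 0.194 CPM. These floors cover counting error only.

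The 4 DNA repair genes divided. Polk, a translesion DNA polymerase, rose 1.28-fold (16.7 ± 0.752 CPM in Nop16 siRNA and 13.1 ± 1.03 CPM in control siRNA libraries; SD, n = 3 each; edgeR adjusted p = 0.00185). Ddb2, which recognises ultraviolet damage, was at 13.9, 14.6 and 14.6 CPM in Nop16 siRNA libraries, against 20.3, 17.6 and 18.6 CPM in control siRNA libraries, and fell to 0.763 of control (edgeR adjusted p = 0.00028). Acp2 on the opposite strand overlaps 652 of the 2736 exon bases of Ddb2, and the counting used strand. Xpc, the partner of Ddb2 in damage recognition, stood higher in every Nop16 siRNA library at 28.5 ± 1.17 CPM, against 25.5 ± 1.47 CPM in control siRNA libraries (SD, n = 3 each), but did not pass (edgeR adjusted p = 0.0811). Ercc5, an endonuclease of excision repair, had overlapping groups (95% interval of the ratio 0.866 to 1.09; edgeR adjusted p = 0.73).

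Of the metabolic targets, Tigar, a phosphatase that lowers glycolytic flux, was at 28, 32.8 and 33.9 CPM in Nop16 siRNA libraries, against 25.4, 24.2 and 25.1 CPM in control siRNA libraries. It rose 1.27-fold (edgeR adjusted p = 0.000125), and its groups did not overlap. Ak1, an adenylate kinase, had 1, 2 and 0 counts in Nop16 siRNA libraries and 4, 5 and 7 in control siRNA libraries, too few to test.

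Cd80 (ENSMUSG00000075122, chr16:38455561-38496335, plus strand), the costimulatory ligand of antigen-presenting cells, rose most of the set. It was at 5.3, 6.56 and 6.68 CPM in Nop16 siRNA libraries, against 2.6, 2.15 and 2.06 CPM in control siRNA libraries (2.72-fold, 95% interval 2.1 to 3.54; edgeR adjusted p = 2.58e-09). The lowest Nop16 siRNA library was above the highest control. The receptor kinase gene Epha2 was at 10.4 ± 0.809 CPM in Nop16 siRNA and 8.89 ± 0.994 CPM in control siRNA libraries, and Notch1 at 2.98 ± 0.622 and 2.34 ± 0.459 CPM in the same order of groups (SD, n = 3 each), with overlapping values and edgeR adjusted p of 0.131 and 0.216. Def6, a signalling protein of immune cells, stood at 88.7 ± 1.86 CPM in Nop16 siRNA and 92.7 ± 3.34 CPM in control siRNA libraries (SD, n = 3 each; edgeR adjusted p = 0.24).

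Cd80 and Fas are also known to be induced when macrophages are activated, and inflammatory genes moved with them. Of 12 inflammatory reference genes, 11 rose (91.7%) and 1 fell (8.33%), at a median of 1.07 on the log2 scale. Among all genes tested, 23% rose and 22.4% fell, with a median of -0.000196. The 12 inflammatory genes summed to 687 to 692 CPM in Nop16 siRNA libraries and 381 to 390 CPM in control siRNA libraries. Il1b rose 7.26-fold, Ptgs2 6.44-fold and Ccl7 5.45-fold. What part inflammatory activation had in the rises of Cd80, Fas and Plk3 was not tested.

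The genes of the set spanned a wide range of levels per kb of exon. Trp53 was second to Plk2, at 41.9 ± 0.378 CPM per kb in Nop16 siRNA and 42.4 ± 1.71 CPM per kb in control siRNA libraries (SD, n = 3 each). Def6 and Mdm4 came next in control siRNA libraries, at 34.7 ± 1.25 and 34.04 ± 0.234 CPM per kb (SD, n = 3), which do not differ beyond their spread. In Nop16 siRNA libraries Mdm4, at 27.4 ± 0.265 CPM per kb, stood beside Ccng1, at 27.9 ± 0.146 CPM per kb (SD, n = 3). The lowest tested genes in control siRNA libraries were Fas, Cd80 and Notch1. Cd80 stood at 1.67 ± 0.207 CPM per kb in Nop16 siRNA and 0.613 ± 0.0778 CPM per kb in control siRNA libraries (SD, n = 3 each), so its large fold is a change between low levels.

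**Figure D4:**
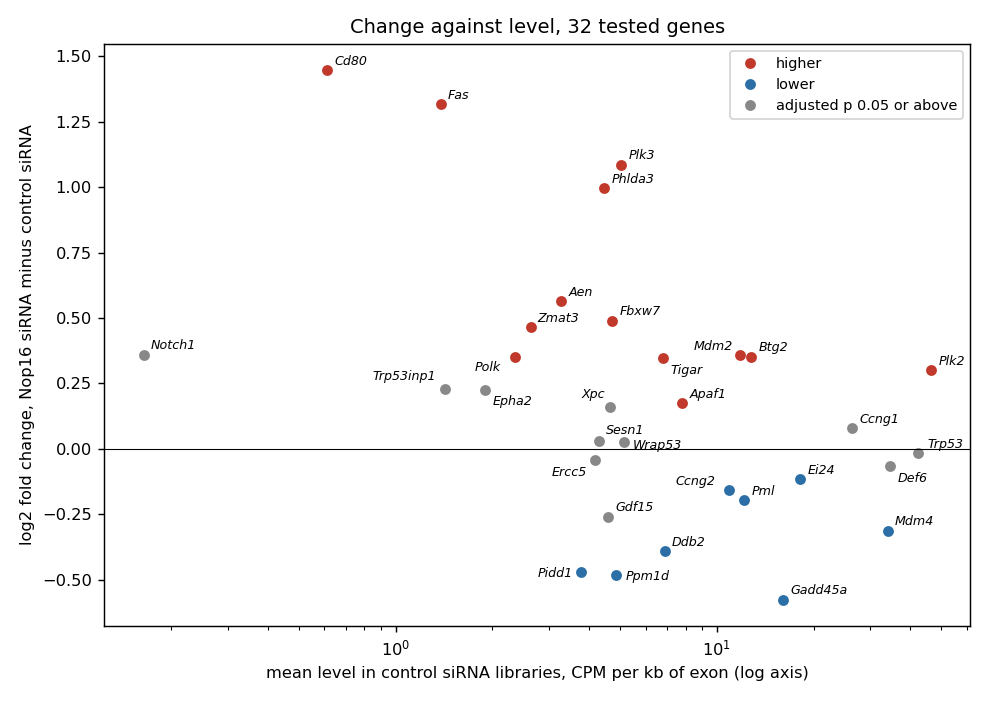
Log2 fold change (Nop16 siRNA minus control siRNA) of the 32 tested genes against their mean level in control siRNA libraries in CPM per kb of exon, on a log axis. Cd80 and Fas, with the largest rises, stood at 0.613 and 1.38 CPM per kb, while the 5 genes at 26.4 CPM per kb or more are Trp53, Def6, Mdm4 and Ccng1, which lie between -0.31 and 0.08, and Plk2, which lies at 0.30.

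Other p53 targets, from a second list of 40, changed in both directions. Of 37 tested, 13 rose (35.1%), 6 fell (16.2%) and 18 did not pass, with a median log2 fold change of 0.07. Over all genes tested, 23% rose and 22.4% fell. Cdkn1a was at 275, 258 and 267 CPM in Nop16 siRNA libraries, against 222, 211 and 218 CPM in control siRNA libraries. It rose 1.23-fold (95% interval 1.17 to 1.29; edgeR adjusted p = 2.32e-11). Bax, a pore-forming protein of mitochondrial apoptosis, rose 1.19-fold (edgeR adjusted p = 1.29e-07), but 12.2% of its exonic length is shared with another gene model on the same strand, so its count is uncertain. The related death genes did not share that direction. Pmaip1, which encodes Noxa, was at 28.3, 33.7 and 32.1 CPM in Nop16 siRNA libraries, against 43.4, 44.3 and 45.7 CPM in control siRNA libraries, and fell to 0.708 of control (edgeR adjusted p = 4.04e-09). Bbc3, which encodes Puma, stood at 48.6 ± 3.79 CPM in Nop16 siRNA and 52.5 ± 3.12 CPM in control siRNA libraries (SD, n = 3 each) and did not pass (log2 fold change -0.11, edgeR adjusted p = 0.112). It passed as lower without control siRNA replicate 1 (-0.16, 0.0406) and without Nop16 siRNA replicate 1 (-0.18, 0.0171).

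Of the genes on that list with separated groups, the 4 with the largest log2 fold changes were Slc19a2, Hexim1, Ckap2 and Rad51c. Slc19a2, a thiamine transporter gene, rose 2.11-fold, and Hexim1, which restrains transcription elongation, rose 1.54-fold. Ckap2, a mitotic spindle gene, fell to 0.662 of control, and Rad51c, a recombination gene, fell to 0.682 of control. Each of the 4 had an edgeR adjusted p of at most 3.25e-06, and their groups did not overlap.

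Of 25 regulators of p53, 22 were tested, and 2 rose, 12 fell and 8 did not pass (median log2 fold change -0.18). Among those tested, 9.09% rose and 54.5% fell, against 23% and 22.4% of all genes tested. Rpl5 was at 436, 447 and 457 CPM in Nop16 siRNA libraries, against 781, 753 and 759 CPM in control siRNA libraries, and fell to 0.585 of control. Rpl11 was at 455, 420 and 456 CPM in Nop16 siRNA libraries, against 604, 617 and 627 CPM in control siRNA libraries, and fell to 0.72 of control. Both genes, whose proteins bind Mdm2, were lower in every Nop16 siRNA library than in every control siRNA library. Rpl23, which also binds Mdm2, fell to 0.635 of control, Nop53, a nucleolar binding partner of Rpl11, to 0.63, and Npm1, nucleophosmin, to 0.719. The checkpoint kinase gene Chek1 fell to 0.63 of control. Each of the 6 had an edgeR adjusted p of at most 4.19e-10. Multi-mapped fragments were counted, and near copies of these 6 genes were not searched for. How far near copies add to their counts is therefore not known. Cdkn2a, whose Arf product inhibits Mdm2, had 0 counts in all 6 libraries, which allows up to 3 counts in each.

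Of 10 cell cycle genes that p53 lowers indirectly, through p21 and the DREAM repressor complex, 10 were tested and 10 fell. Their median log2 fold change was -0.93, and they summed to 568 to 579 CPM in Nop16 siRNA libraries and 1085 to 1122 CPM in control siRNA libraries. Among all genes tested, 22.4% fell, and the median was -0.000196. Ccnb2 fell to 0.415, Plk1 to 0.456 and Ccnb1 to 0.48 of control. RNA of these genes is also known to follow the rate of division. Whether p53 took part in their fall was not tested.

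**Figure D5:**
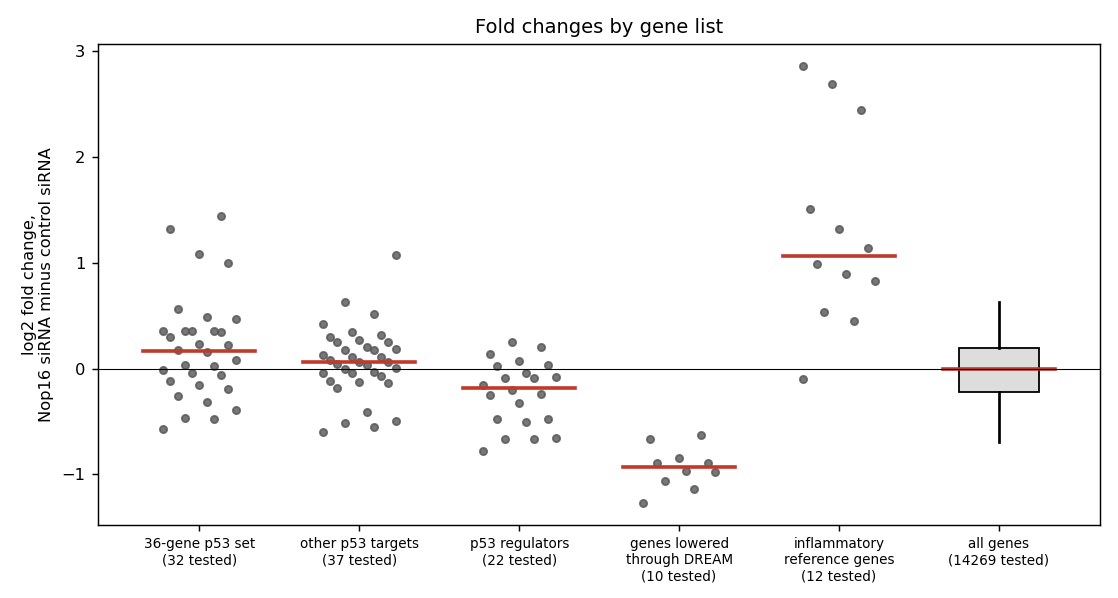
Log2 fold change (Nop16 siRNA minus control siRNA) of each tested gene in 5 lists, with the list's median in red, beside a box for all 14269 genes tested (box: middle 50% of genes; whiskers: 5% to 95%). The p53 set and the other p53 targets lie on both sides of 0 with medians of 0.17 (0.0728 with no filter on low counts) and 0.07, while the cell cycle list lies wholly below 0 and 11 of 12 inflammatory genes lie above it.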

How the data were processed

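The authors deposited raw counts of fragments per gene, 1 table per library. Per the file headers, featureCounts 2.0.1 counted read pairs over filtered Ensembl release 101 models of GRCm38, with strand setting 2, a minimum overlap of 10 bases and multi-mapped and multi-overlapping fragments included. The submitters' processing notes name HISAT2 2.2.1 and Trim Galore, without a version for the second of these tools. Counting multi-mapped fragments makes near-identical genes uncertain. No gene of the set shares exon bases with another gene on its strand.

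Counts of all 6 libraries were tested with edgeR 4.0.16 in R 4.3.3 (robust quasi-likelihood, TMM, filterByExpr), with Benjamini-Hochberg adjustment over all 14269 genes tested. Fold changes are Nop16 siRNA over control siRNA, the SE comes from the fold change and the test's F, and intervals are 95%. CPM use TMM-scaled totals of the tested genes. Symbols came from GENCODE release 21 for mouse, and near copies of the 36 genes from BLAST 2.17.0 at 95% identity over 300 bases. Libraries of a group differed beyond sampling noise (chi-square 2.52 to 3.12 per degree of freedom), so none repeats another. The tests and the motif search were tried on simulated data. All 36 genes are named, and from the other lists Cdkn1a, Bax, Bbc3, Pmaip1, Rpl5, Rpl11, Npm1, Cdkn2a and the largest separated changes. The genes, lists and tests were chosen with earlier results of these data known.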

Additional observations from a re-analysis of the deposited data

How the results depend on the processing

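Besides the reported fit, 16 settings were tried: 3 other scalings, DESeq2 1.42.0, limma-voom (limma 3.58.1), a replicate block, thinning to equal depth, dispersion without the robust option, no filter, a stricter filter (5 CPM in 3 libraries) and leaving out each library. The same 13 genes of the set stayed higher in all 16, and 6 of the 8 lower genes stayed lower, with Ccng2 and Ei24 as the exceptions described above. None of the 11 genes that did not pass did so under any setting in which it was tested. The median log2 fold change of the set was 0.0804 in DESeq2 and 0.0728 with no filter, where 3 genes with few counts joined the median, and 0.138 to 0.186 without single libraries. Without control siRNA replicate 1, 1 regulator of p53 was higher, and without any other library 2 were. Whether same-numbered libraries were set up together is not known. Their correlations of deviations lay between -0.0235 and 0.00283, and those of differently numbered libraries between -0.0365 and 0.0436. Correlations this small, over deviations that hold much counting noise, cannot decide it. With a replicate block, 13 genes of the set were higher and 8 lower, as without it, and the median was 0.17. Depth limits Tnfrsf10b, Perp, Eda2r and Ak1, which had too few counts to test.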
